A study of Mus musculus with 51 samples.

Results

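The regions described here are H3K4me3 peaks of 24h mouse embryos that lie inside a protein_coding gene body but away from promoters. A peak was taken when it lay wholly inside such a gene, over 10 kb from every protein_coding start and over 2 kb from every lincRNA start, with no overlap with an H3K27me3 peak. Of 48658 H3K4me3 peaks, 10489 (21.6%) met this rule, and they lay in 4490 genes, called host genes below. The rule used position and the H3K27me3 peak table but no H3K4me3 level.

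H3K4me3 was mapped by an in-situ ChIP method, in which libraries are made by tagmentation, in LoNA KO and control C57BL/6 embryos at 24h, with 1 library per condition. LoNA is a nucleolar long noncoding RNA, and the series asks whether impaired nucleolus assembly represses the two-cell transcriptome by way of nucleophosmin and Polycomb. Acetylated nucleophosmin (AcNPM1) was profiled in LoNA KO embryos given a p300 inhibitor, in LoNA KO embryos and in control embryos at 24h, with 1 deposited value per condition. RNA was sequenced from LoNA KO and control embryos at 18h, 20h, 22h and 24h, described as two-cell embryos. The treatment field of all 24h chromatin samples, control included, names a p300 inhibitor, while only 1 group carries it in its title. The labels give no more of the knockout allele or of the number of embryos pooled.

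The H3K4me3 libraries held 49648616 reads in KO and 66601350 reads in control, of which 39.3% and 42.2% fell in peaks. The columns of that table carry initials, and KO and control were read from the direction of its ratio and its title, so each direction below rests on that reading. With 1 library per condition there is no replicate check and no test of H3K4me3. Intervals are exact binomial at 95% and cover counting error only. RNA libraries held 12077497 to 18286944 counts at 18h to 22h and 13066794 to 16922914 at 24h, with 3 libraries per group at 18h, 20h and 22h and 2 at 24h. The 24h libraries of a group stood apart from each other, with a correlation of log2 CPM of 0.525 to 0.592, against 0.859 to 0.935 within groups at the earlier times. LoNA is not a gene name in the count tables, and the knockout was not checked at its own locus.

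Trimethylation of histone H3 at lysine 4 is laid down by the SET1 and MLL methyltransferases and marks the promoters of most active genes and of CpG-rich genes in general. In the mouse oocyte it also spreads over broad regions outside promoters, and this noncanonical form is largely removed around the late two-cell stage, for which the demethylases Kdm5a and Kdm5b are needed. Peaks inside genes can also mark alternative promoters or enhancers. H3K27me3 is the mark of Polycomb repressive complex 2 (PRC2).

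Part of the set was not far from every known start. A start annotated by RefSeq (GRCm38.p6, the same build as the mm10 of the files) lay inside 554 members (5.28%), against 324 of 11569 intergenic peaks chosen by the same distances (2.80%). For 423 members the start was one of the host gene itself, and in 126 of these cases (29.8%) no H3K4me3 peak lay within 1 kb of the host's start as deposited. RefSeq start windows, which run from 250 bases before to 50 after a start, lay wholly inside a member 456 times. Their CpG count had a median of 16, against 7 in all 32851 RefSeq windows and 23 in the 7879 windows inside promoter peaks. The motif GGGCGG, searched on both strands, was in 58.6% of them, against 35.7% of all windows and 70.5% of those in promoter peaks. TATAAA was in 5.48%, against 13.6% and 4.29%, and CCAAT in 32.9%, against 37.4% and 40.7%. The shares describe the windows and say nothing of binding.

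The following windows inside members are shown, 5′ to 3′ on the gene's strand with CG in capitals, because they are starts of the host gene that the deposited annotation did not separate from its body. Tet1 and Kdm2b had no H3K4me3 peak at their deposited start. Ndrg4 is the member with the highest KO level of those with a RefSeq start, and Nrg4 holds the lowest KO over control ratio of them.
Tet1 (chr10:62887275-62887574, minus strand, 17 CG): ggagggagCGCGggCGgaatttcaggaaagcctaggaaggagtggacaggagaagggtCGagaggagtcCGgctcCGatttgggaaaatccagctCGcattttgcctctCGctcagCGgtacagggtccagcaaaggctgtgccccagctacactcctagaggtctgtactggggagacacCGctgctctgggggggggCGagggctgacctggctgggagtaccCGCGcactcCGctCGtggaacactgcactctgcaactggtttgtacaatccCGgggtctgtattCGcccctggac
Kdm2b (chr5:122900301-122900600, minus strand, 49 CG): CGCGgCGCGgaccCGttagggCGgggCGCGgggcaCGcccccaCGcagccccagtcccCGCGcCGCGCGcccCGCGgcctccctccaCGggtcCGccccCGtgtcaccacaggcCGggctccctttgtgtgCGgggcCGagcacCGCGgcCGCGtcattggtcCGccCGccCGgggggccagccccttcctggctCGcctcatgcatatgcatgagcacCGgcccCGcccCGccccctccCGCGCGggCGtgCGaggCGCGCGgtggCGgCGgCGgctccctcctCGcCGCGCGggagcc
Ndrg4 (chr8:95702806-95703105, plus strand, 11 CG): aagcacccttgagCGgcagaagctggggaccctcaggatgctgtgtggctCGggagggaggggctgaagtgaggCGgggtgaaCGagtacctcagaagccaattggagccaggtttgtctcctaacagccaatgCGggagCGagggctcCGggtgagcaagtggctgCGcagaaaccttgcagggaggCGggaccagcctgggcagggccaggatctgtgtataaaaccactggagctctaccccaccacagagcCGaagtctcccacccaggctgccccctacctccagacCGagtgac
Nrg4 (chr9:55283576-55283875, minus strand, 13 CG): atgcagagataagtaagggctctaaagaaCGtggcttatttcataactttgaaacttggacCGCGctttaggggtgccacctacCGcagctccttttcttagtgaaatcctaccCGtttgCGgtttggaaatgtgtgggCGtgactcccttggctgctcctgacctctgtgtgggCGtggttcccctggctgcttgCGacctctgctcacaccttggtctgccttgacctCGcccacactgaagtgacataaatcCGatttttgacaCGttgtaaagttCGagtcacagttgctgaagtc
The Kdm2b window is by far the richest in CG of the 4 and held GGGCGG 6 times, whereas the Nrg4 and Ndrg4 windows held it 0 times and the Tet1 window 1 time. Ndrg4 was the 1 window of these with TATAAA.

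Gene-body peaks were narrow and weak beside promoter peaks and close to intergenic ones. Their median width was 700 bases, against 1175 at promoter peaks without H3K27me3 and 692 between genes. The median level was 4.57 RPM per kb of peak in KO and 5.02 in control, where RPM is the reads of a peak scaled by the total reads of the library. Promoter peaks had 10.6 RPM per kb in KO and 11.5 in control, and intergenic peaks 4.22 in KO and 4.58 in control. Where the host also had an H3K27me3-free peak at its start, which held for 6515 members, 10.1% of members were above that peak in RPM per kb in KO and 11.4% in control. Members took 4.85% of all reads in KO and 5.34% in control.

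**Figure D1:**
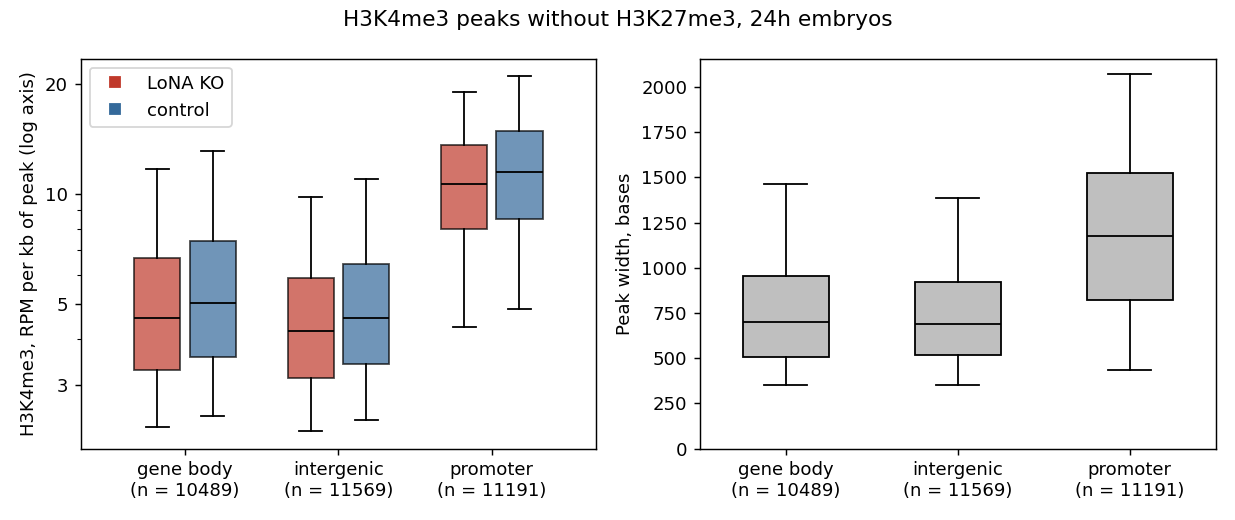
Left, H3K4me3 level in RPM per kb of peak (log axis) in LoNA KO (red) and control (blue) 24h embryos, 1 library each. Right, peak width in bases. Boxes span the quartiles over peaks with the median as a line, and whiskers the 5th to 95th percentile. Gene-body peaks, with medians of 4.57 and 5.02 RPM per kb and 700 bases, sit near intergenic peaks and below promoter peaks.

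Density of the peaks fell with distance from the host start in kb, but not along the relative length of the gene. Per Mb of gene body open to the rule there were 20.0 members at 10 to 20 kb from the host start, 16.8 at 20 to 50 kb, 13.9 at 50 to 100 kb, 10.2 at 100 to 200 kb and 6.18 beyond 200 kb. The mean over gene bodies was 12.7 per Mb, against 7.83 between genes. The bins of greater distance hold only the longer genes. Binned instead into 10 equal parts of each gene's length, density ran from 10.2 per Mb in the part nearest the start to 14.2 in the farthest. Of the members, 32.0% had another H3K4me3 peak within 5 kb, against 24.5% of intergenic and 44.3% of promoter peaks. Among genes over 20 kb, 42.8% held a member, and 82.0% of these had an H3K4me3 peak at their own start, against 75.6% of the genes that held none. With no genome at hand, exons, introns and repeats were not analysed.

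**Figure D2:**
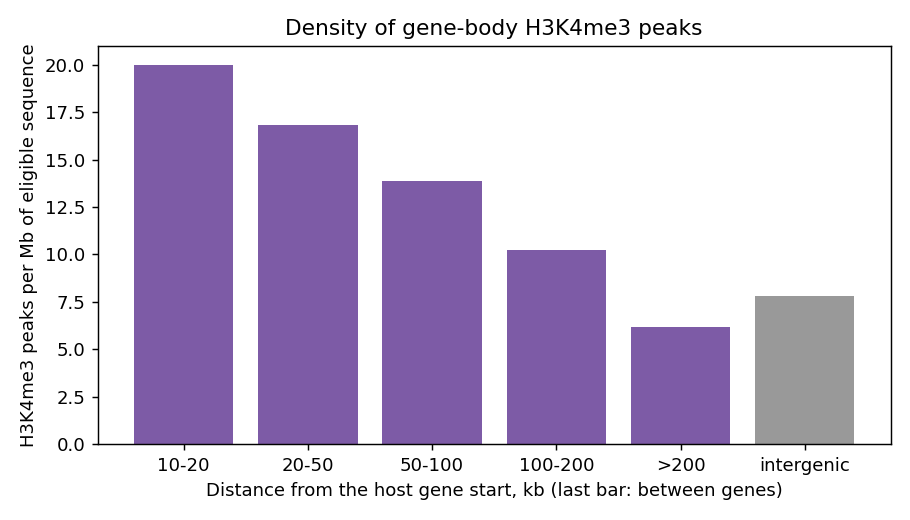
Gene-body H3K4me3 peaks per Mb of sequence open to the rule, by distance of the peak from the host gene start in kb (purple), and intergenic peaks per Mb (grey). Density runs from 20.0 per Mb nearest the start to 6.18 per Mb beyond 200 kb, where it is below the 7.83 per Mb found between genes.

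The rule's distance limit cut through a continuum. Just inside it were peaks of Atp8b5, 10001 bases from the nearest start with 1.95 RPM in KO and 2.31 in control, and of Slc12a5, at 10002 bases with 4.35 and 4.79 RPM. Just outside were peaks of Fbxw4, at 9999 bases with 3.22 RPM in KO and 5.04 in control, and of Lrrc32, at 9998 bases with 3.14 and 2.54 RPM.

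H3K4me3 at gene-body peaks was slightly lower in the KO library than in the control library, and so was that at other peaks. Summed over members, RPM was 48520 in KO and 53401 in control, a log2 ratio of -0.138 (-0.141 to -0.136). The ratio of the sums was -0.106 (-0.106 to -0.105) over all H3K4me3 peaks, which include those with H3K27me3. Among peaks without H3K27me3 it was -0.130 over all, -0.119 at promoter peaks and -0.134 at intergenic peaks. The median member had 3.16 RPM in KO and 3.498 in control, and the median log2 ratio was -0.14, against -0.13 over all H3K4me3 peaks, -0.13 at promoter peaks and -0.12 at intergenic peaks. Of the members, 7521 (71.7%) were lower in KO and 2968 higher, where 73.2% of all peaks were lower. Scaling both libraries by their reads in the 14275 peaks within 1 kb of a protein_coding start shifted every log2 ratio by 0.08, to a members' median of -0.05 and 58.4% lower, beside -0.04 and 58.3% over all peaks.

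Past 2-fold, 8 members were lower in KO and 1 was higher, where 0.0678% and 0.0103% of all peaks passed the same limits. Scaled by promoter reads the counts were 2 lower and 12 higher, with 0.0185% and 0.0473% over all peaks. The SD of the log2 ratio over members was 0.27, and its median counting error was 0.15. With peaks ranked by reads into 10 equal bins, it narrowed from 0.34 in the bin with the fewest reads to 0.13 in the bin with the most, while the members' median stayed between -0.17 and -0.06.

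**Figure D3:**
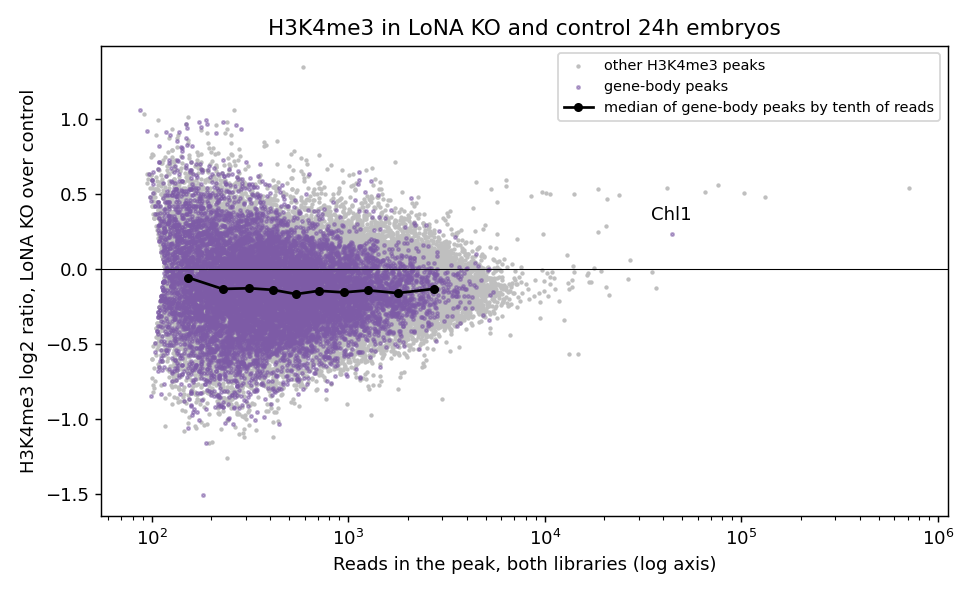
Log2 ratio of H3K4me3, LoNA KO over control, against the reads in the peak over both libraries (log axis), for gene-body peaks (purple) and other H3K4me3 peaks (grey), with the median of gene-body peaks in each of 10 bins of reads (black). The medians stay between -0.17 and -0.06 while the spread narrows with reads, and the Chl1 peak stands apart at 415.6 RPM in KO and 353.2 in control.

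The peaks with the lowest ratios held few reads. A peak in Ppp1r9a, which encodes the actin-binding protein neurabin, had 0.765 RPM in KO and 2.18 in control, from 38 and 145 reads, a log2 ratio of -1.51 (-2.06 to -0.98). Next was the peak over the internal start of Nrg4, an EGF-family ligand, with 0.947 RPM in KO and 2.12 in control (log2 -1.16, -1.67 to -0.68). The best counted of the 8 was in Foxn3, a forkhead repressor, with 2.38 RPM in KO and 4.88 in control from 118 and 325 reads, and a RefSeq start lay 447 bases from it. Peaks in Rapgef2, Pgap1, Ttpa, Tanc2 and Aplf made up the others, at log2 ratios of -1.06 to -1.01. None of the 8 genes is on a list used here.

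At the other end the values were as sparse. With at least 100 reads, the highest ratio was in Fbxo21, an F-box protein, with 2.28 RPM in KO and 1.14 in control (log2 0.996, 0.56 to 1.44). Tmem135, Pou6f1, Pccb, Csrnp3, Gbx1, Epb41l3 and 2010111I01Rik followed, at 0.98 to 0.95. The 1 member past 2-fold was in Lrrfip2, with 1.07 RPM in KO and 0.511 in control from 53 and 34 reads. Pou6f1 is a POU-domain and Gbx1 a homeobox transcription factor, and Pccb is a subunit of mitochondrial propionyl-CoA carboxylase.

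The peak with the most reads stood far from the rest. It lay in Chl1, which encodes a neural cell adhesion molecule, at chr6:103649048-103649305, was only 258 bases wide, and had 415.6 RPM in KO and 353.2 in control, where no other member passed 49.1 RPM. Its log2 ratio was 0.23 (0.21 to 0.26), and without it the summed ratio of all members was -0.141. An AcNPM1 peak with the same start had 189.5 RPM in KO and 135.7 in control and ranked 13 of 9602 in its table. Chl1 RNA was near absent, with a group mean of at most 0.791 CPM at 18h, 20h and 22h.

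The remaining peaks of the 10 with the most reads were 1172 to 3265 bases wide. In Piezo1, which encodes a mechanosensitive ion channel, a peak of 2932 bases had 38.9 RPM in KO and 49.1 in control (log2 -0.34, -0.42 to -0.26). The widest member of all, 3265 bases in Gse1, had 36.7 RPM in KO and 45.3 in control (log2 -0.30, -0.39 to -0.22). Both were lower in KO by more than the median of all peaks. Others were level or above: Ndrg4 had 44.6 RPM in KO and 44.5 in control, and a peak in Chd9, a chromodomain helicase, 39.9 and 37.3. A peak in Gm3448 (44.1 RPM in KO, 48.98 in control) holds RefSeq starts of Gm3435 and Gm3448, and reads of such near neighbours may not be told apart. The other wide members, in Gramd1b, Rreb1 and Fgfr2, had 24.3 to 31.1 RPM in KO and 24.3 to 32.6 in control.

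Members were spread unevenly over the host genes. Of the host genes, 2311 (51.5%) held 1 member, 528 held at least 5 and 113 at least 10. Gse1 held the most, with 47 members over 352935 bases, of which 39 were lower in KO, and their RPM summed to 449.6 in KO and 515.0 in control (log2 -0.20, -0.22 to -0.17). Msi2, an RNA-binding protein, held 27 and Dst, a cytoskeletal linker, held 25, with log2 ratios of the sums of -0.11 and -0.18. Pde4d, a cAMP phosphodiesterase, held 23, of which 21 were lower (log2 -0.19, -0.24 to -0.14). Gene length differs among these: per 100 kb of the whole gene, Gse1 held 13.3 members, Msi2 7.12, Dst 6.24 and Pde4d 1.53. The mean of 12.7 given above is per Mb, a unit 10 times as long, and counts only sequence open to the rule. It is therefore not on the scale of these values per 100 kb. Fgfr2, a fibroblast growth factor receptor, is listed with 38, but its deposited body spans 2960900 bases against 104358 in RefSeq, and only 3 of the 38 lie in the RefSeq span. Over all members 10108 (96.4%) lay inside the RefSeq span of their host.

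Among the 528 genes with at least 5 members, the log2 ratio of summed RPM ran from -0.41 to 0.17 with a median of -0.14. Only 3 genes were below Esrrb, an orphan nuclear receptor of the pluripotency network: Ptpn14 (-0.41), Clmn (-0.39) and Plcb4 (-0.39), each with 5 to 7 members of which at most 1 per gene was not lower in KO. Near the other end Glis3 stood at 0.17 (-0.02 to 0.35) and Frmd5 at 0.16 (0.03 to 0.29).

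Esrrb held 11 members, of which 10 were lower in KO, and they summed to 65.5 RPM in KO and 85.1 in control (log2 -0.38, -0.44 to -0.32). The difference was not spread evenly along the gene. The 3 members at 34.7 to 74.8 kb from the gene start summed to 8.96 RPM in KO and 9.10 in control (log2 -0.02, -0.20 to 0.16). The 8 members from 109.2 to 140.8 kb summed to 56.6 RPM in KO and 76.0 in control (log2 -0.43, -0.49 to -0.36), and each of the 8 intervals lay below 0. Those at chr12:86489887-86490592 (-0.47 to -0.07) and chr12:86498424-86499271 (-0.45 to -0.03) included the median of all peaks, -0.127. Their upper limits were also nearer 0 than the shift of 0.08 under promoter scaling. The largest gap was at chr12:86478697-86479334, with 7.17 RPM in KO and 11.8 in control (log2 -0.72, -0.90 to -0.54). The strongest was at chr12:86470011-86470590, with 10.6 and 13.4 RPM. The split by distance was made after these values were seen. No H3K4me3 peak lay within 1 kb of the deposited Esrrb start, and 2 of the 14 peaks in its body overlapped H3K27me3. Under promoter scaling the log2 ratio of the 11 members was -0.29.

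Other pluripotency genes also held members. The list of 18 such genes had 8 hosts, where 4490 of all 20027 coding genes were hosts. These 8 held 30 members, of which 28 were lower in KO, where 71.7% of all members were. They summed to 225.1 RPM in KO and 267.5 in control (log2 -0.25, -0.28 to -0.21), beside -0.14 over all members. With promoter scaling the ratio was -0.16 for the list and -0.05 for all members. Esrrb alone gave 11 of the 30, and peaks of the same gene are not independent. Tet1, a 5-methylcytosine dioxygenase, held 5, all lower in KO. Its peak over the internal start had 36.4 RPM in KO and 39.5 in control (log2 -0.12, -0.21 to -0.03), and the 2514-base peak at chr10:62865228-62867741 had 26.1 and 33.9 RPM (log2 -0.38, -0.48 to -0.28). The related dioxygenase Tet2 held 7, with 29.7 RPM in KO and 31.7 in control (log2 -0.10, -0.19 to -0.0008). Tfcp2l1, a factor of naive pluripotency, held 3, with 16.0 and 18.0 RPM. The nuclear receptor Nr5a2, Klf5, Sall4 and Zfp42 held 1 each, all lower in KO, at log2 ratios of -0.25 to -0.12. The peaks at the starts of Zfp42 (21.3 RPM in KO, 26.6 in control), Klf5 (17.3 and 21.3) and Sall4 (7.98 and 9.70) were lower too, at log2 ratios of -0.32 to -0.28. Those of Tfcp2l1 (12.5 and 12.6) and Tet2 (11.5 and 10.2) were level or higher.

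**Figure D4:**
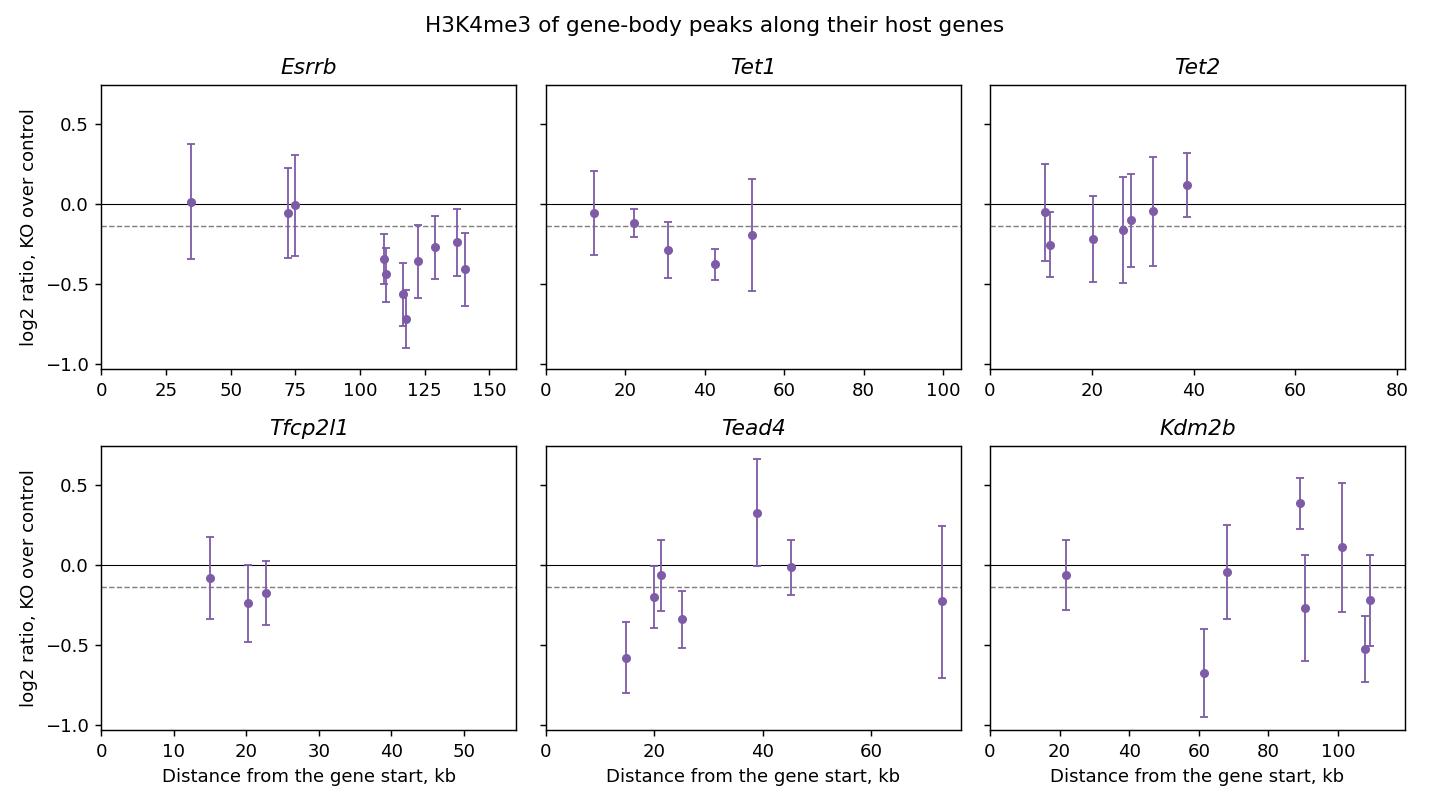
Log2 ratio of H3K4me3, LoNA KO over control, for each gene-body peak of 6 host genes against distance from the gene start in kb. Bars are exact binomial 95% intervals (counting error only), the solid line is 0 and the dashed line the median of all gene-body peaks. In Esrrb the 8 peaks beyond 100 kb lie below 0 with their whole intervals, though not all of these intervals lie below the dashed line. In Kdm2b 1 peak of 8 lies above 0 with its whole interval.

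Tead4, a transcription factor needed for trophectoderm, was the 1 host among 12 trophectoderm and later-embryo genes. It held 7 members, 6 of them lower in KO, with 40.1 RPM in KO and 45.8 in control (log2 -0.19, -0.28 to -0.11). Developmental regulators, many of them PRC2 targets, gave 4 hosts of 30, Pax7, Gata4, Tbx15 and Lhx2, with 8 members at 50.6 RPM in KO and 52.7 in control (log2 -0.06, -0.13 to 0.01). The rule leaves out peaks that overlap H3K27me3, so both count and ratio describe only the peaks that remain. Such an overlap held for 4 of 5 peaks in the Gata4 body, 3 of 4 in Tbx15, 2 of 5 in Lhx2 and 0 of 4 in Pax7. Two-cell genes gave 1 host of 30, Zfp809, with 2.78 RPM in KO and 3.51 in control. Maternal oocyte genes gave 1 of 24, Kit, whose 2 members had 4.25 and 4.04 RPM, and markers of cumulus and granulosa cells 1 of 15, Cyp19a1, with 2.60 and 2.88 RPM. Beside these counts, 4490 of 20027 coding genes of any length were hosts. A gene shorter than 10 kb cannot be a host under the rule, and the lists were not matched for gene length.

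Genes on the lists of H3K4 methyltransferases, core subunits and demethylases were also among the hosts. For scale, 4490 of all 20027 coding genes held a member. Of 14 methyltransferases and core subunits, Kmt2c, Kmt2e and Setd1b held 1 each, with 10.6 RPM in all in KO and 11.5 in control. Of 8 genes on the demethylase list, Kdm2b, Kdm1a, Kdm1b, Kdm2a and Kdm5b held 13, with 69.3 RPM in KO and 73.3 in control (log2 -0.08, -0.14 to -0.02). Most of this came from Kdm2b (39.6 and 42.4 RPM) and Kdm2a (22.2 and 21.6 RPM). Being on the list does not show that a gene acts on H3K4me3. Kdm2b, which binds CpG-rich DNA and is part of a variant PRC1, held 8 of the 13 members, and they did not move together. Its peak over the internal start shown above had 13.2 RPM in KO and 10.1 in control (log2 0.38, 0.23 to 0.54), while the peak at chr5:122927848-122928824 had 3.26 and 5.21 RPM (log2 -0.68, -0.95 to -0.40) and that at chr5:122881335-122882756 had 5.98 and 8.60 RPM (log2 -0.52, -0.73 to -0.32).

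Few members met AcNPM1. An AcNPM1 peak overlapped 212 members by at least 1 base (2.02%, Wilson interval 1.77% to 2.31%), and these took 214 of the 9602 AcNPM1 peaks (2.23%). Promoter peaks without H3K27me3 overlapped AcNPM1 in 3.12% of cases, intergenic ones in 2.97% and all peaks without H3K27me3 in 2.62%. Of the 8085 H3K4me3 peaks that overlap H3K27me3, which the rule leaves out, 72.3% did. In the table that compares inhibitor-treated with untreated KO embryos, 332 members (3.17%) met an AcNPM1 peak. There the share was 5.25% of promoter peaks without H3K27me3, 5.13% of intergenic peaks and 4.35% of all peaks without H3K27me3. At the 214 AcNPM1 peaks the summed log2 ratio, KO over control, was 0.15 (0.13 to 0.17), but 0.05 (0.02 to 0.08) without the Chl1 peak. The median there was 0.01, against 0.14 over all AcNPM1 peaks.

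Small RNAs were also among the sequences covered. RefSeq miRNA hairpins overlapped members 16 times, and the share over all H3K4me3 peaks was not counted. Among them were Mir1904 in Pde4d (20.8 RPM in KO, 20.5 in control), Mir7687 in Gse1 (25.8 and 28.5 RPM) and Mir128-2 in Arpp21 (1.73 and 2.31 RPM).

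RNA of the host genes was compared between KO and control at each time with edgeR's quasi-likelihood test. No host gene passed an adjusted p of 0.05 at any time, of 3401 tested at 18h, 3243 at 20h, 3422 at 22h and 1654 at 24h, while 0.00649%, 0.0138%, 0.00656% and 0% of all genes tested passed. At an unadjusted p under 0.05 there were 153, 92, 119 and 79 host genes in that order, against 5.14%, 3.66%, 3.15% and 5.16% of all genes. As shares of hosts tested these are 4.50%, 2.84%, 3.48% and 4.78%. DESeq2 called 13, 7, 0 and 261 hosts, where it called 0.48%, 0.204%, 0.0139% and 16.2% of all genes with an adjusted p. Median log2 changes of hosts were -0.07, 0.01, 0.02 and -0.10, beside -0.02, -0.03, -0.002 and 0.02 over all genes tested. P-values measure the spread between these libraries, whose separate origin is not stated. Fewer cells and less RNA per cell cannot be told apart in such data.

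The 10 host genes with the highest control CPM at 24h were taken for a closer description, and none of them is on a list used here. CPM has no length correction, so levels are compared within a gene only. Spin1, which encodes a reader of H3K4me3, had 18168, 10154 and 12490 CPM in KO libraries at 20h, against 14720, 23122 and 23071 CPM in control libraries. The groups overlapped, and the log2 change was -0.58 ± 0.36 (SE) with an edgeR adjusted p of 0.998. At 24h it had 9097 and 10334 CPM in KO and 11435 and 14115 CPM in control, without overlap, with a log2 change of -0.39 ± 0.34 (SE) and an edgeR adjusted p of 0.9999. At 18h and 22h the groups overlapped.

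Brdt, a bromodomain protein of the germ line, averaged 2913 ± 1137 CPM in KO and 5287 ± 525 CPM in control at 24h (SD, n = 2), without overlap, with an edgeR adjusted p of 0.946, and the groups overlapped at 18h, 20h and 22h. Obox1, a homeobox gene of the early embryo, averaged 4760 ± 884 CPM in KO and 3078 ± 273 CPM in control at 18h (SD, n = 3), also without overlap, at an edgeR adjusted p of 0.967. At 20h its means were 6288 CPM in KO and 6142 CPM in control, and at 22h 2404 and 2521 CPM, with overlap at both times. At 24h it had 5465 and 6906 CPM in KO and 3605 and 4457 CPM in control, again without overlap, with a log2 change of 0.62 ± 0.39 (SE) and an edgeR adjusted p of 0.9999. Reads of Obox1 may be shared with other members of its gene family. Nlrp9c, Immp1l, Mdm4, Memo1, Meis2 and Tpd52 were also among the 10, with edgeR adjusted p of 0.891 or more at each time. At 24h Nlrp9c (higher in KO), Mdm4 and Tpd52 (both lower) were without overlap too, as was Meis2 (lower) at 18h. With 2 libraries per group a gap between groups carries little weight. The share of all genes without overlap was not counted, here or below.

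Of the genes described above for their H3K4me3, Esrrb, Tet1, Kdm2b and Foxn3 showed no call in RNA. Esrrb had 11.3, 21.8 and 9.48 CPM in KO libraries at 18h, against 13.7, 11.3 and 19.3 CPM in control libraries. At 20h it had 31.9, 24.4 and 57.1 CPM in KO and 25.1, 23.1 and 39.9 in control. At 22h it had 25.4, 32.9 and 14.96 CPM in KO and 25.02, 25.2 and 46.2 in control. The groups overlapped at each of these times, the log2 changes were -0.06 ± 0.49, 0.36 ± 0.44 and -0.40 ± 0.38 (SE), and the edgeR adjusted p was at least 0.998. Esrrb is not listed in the 24h table, when chromatin was taken.

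Tet1 averaged 14.0 ± 4.33, 22.1 ± 18.1 and 13.3 ± 3.75 CPM in KO at 18h, 20h and 22h, against 15.5 ± 15.3, 21.5 ± 10.5 and 17.0 ± 2.99 CPM in control (SD, n = 3 each). At 24h it had 0 and 2.77 CPM in KO and 4.09 and 2.68 in control. Kdm2b averaged 61.3 ± 6.38, 45.9 ± 16.9 and 76.1 ± 13.8 CPM in KO at 18h, 20h and 22h, against 68.1 ± 19.3, 58.2 ± 8.63 and 78.7 ± 17.4 in control (SD, n = 3 each). Foxn3 averaged 158.7 ± 32.8 CPM in KO and 187.1 ± 16.4 CPM in control at 18h (SD, n = 3 each). At 20h it averaged 208.7 ± 36.8 CPM in KO and 151.6 ± 36.2 CPM in control, and at 22h 317.6 ± 54.0 and 334.5 ± 42.3 CPM. At 24h it had 5.85 and 31.2 CPM in KO and 11.9 and 157.1 CPM in control. Its groups overlapped at each time. None of these differences exceeded the spread in edgeR's test.

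**Figure D5:**
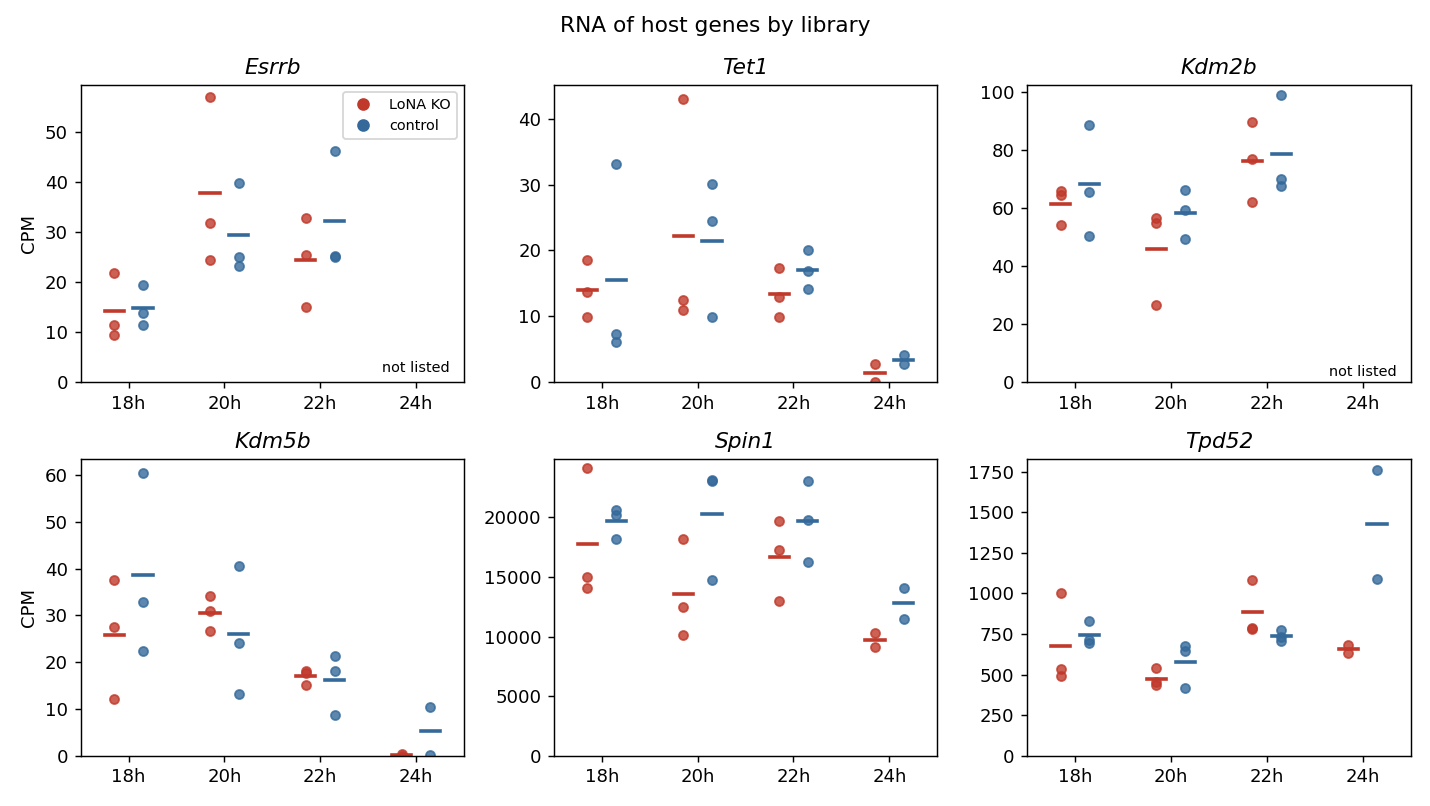
RNA of 6 host genes in CPM by library (points) with the group mean (line), LoNA KO in red and control in blue, at 18h, 20h and 22h (3 libraries per group) and 24h (2 per group). In Esrrb, Tet1, Kdm2b and Kdm5b the groups overlap at 18h, 20h and 22h. Esrrb and Kdm2b are not listed at 24h, and Tpd52 at 24h has 633.3 and 681.9 CPM in KO and 1088 and 1763 CPM in control.

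RNA of the genes on the H3K4 methyltransferase and H3K4 demethylase lists was measured too. No gene of either list passed edgeR's threshold at any time, of 14, 14, 14 and 9 tested methyltransferases and core subunits and of 8, 8, 8 and 6 tested demethylases at 18h, 20h, 22h and 24h. At an unadjusted p under 0.05 there were 3, 1, 1 and 0 methyltransferases and subunits and 0 demethylases at each time, where 5.14%, 3.66%, 3.15% and 5.16% of all genes stood there, and DESeq2 called 0. The 3 at 18h, described after their values were seen, are the complex subunits Rbbp5 and Dpy30 and the methyltransferase Kmt2b, and in each the KO libraries lay above the control libraries. Rbbp5 had 57.1, 92.2 and 75.8 CPM in KO and 39.5, 42.5 and 26.8 CPM in control. Dpy30 averaged 944.4 ± 296.2 CPM in KO and 567.7 ± 125.5 CPM in control, and Kmt2b 29.6 ± 2.16 CPM in KO and 17.2 ± 2.41 CPM in control (SD, n = 3 each). Their edgeR adjusted p was 0.766 or more, and at 22h the groups overlapped for all 3. Kdm5b had 37.6, 12.2 and 27.4 CPM in KO libraries at 18h, against 32.8, 22.4 and 60.4 in control libraries, and 17.8, 15.03 and 18.1 at 22h, against 8.79, 21.4 and 18.1. Its log2 changes over 18h, 20h and 22h were -0.58 ± 0.50, 0.23 ± 0.46 and 0.08 ± 0.38 (SE), with edgeR adjusted p of 0.998 or more. Kdm5a averaged 5.14 ± 4.14 CPM in KO and 13.4 ± 11.1 CPM in control at 18h (SD, n = 3 each), with an edgeR adjusted p of 0.9999. At 22h it averaged 4.99 ± 0.67 CPM in KO and 2.41 ± 1.18 CPM in control, with each KO library above each control library, and the edgeR adjusted p was no lower than at 18h.

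No gene of the other lists passed by edgeR either. Pluripotency genes had 0 of 17, 14, 14 and 9 tested at an unadjusted p under 0.05 in time order. For two-cell genes these counts were 3 of 30, 0 of 26, 1 of 23 and 0 of 19, and for maternal oocyte genes 3 of 22, 1 of 23, 0 of 23 and 1 of 20. For developmental regulators they were 0 of 14, 0 of 15, 1 of 12 and 2 of 5, and for trophectoderm and later-embryo genes 1 of 8, 0 of 6, 0 of 7 and 3 of 6. The shares of all genes given above, 5.16% at 24h, are the background of these counts. At 24h all 5 tested developmental regulators had a negative log2 change, and the listed genes summed to 37.0 and 97.7 CPM in KO and to 93.6 and 254.4 CPM in control, with overlap. Of the 6 trophectoderm and later-embryo genes 4 were negative, and the listed genes summed to 151.9 and 189.5 CPM in KO and to 253.6 and 322.9 CPM in control, without overlap. DESeq2 called 1 two-cell gene, 5 developmental regulators and 2 trophectoderm genes, all at 24h, when it called 16.2% of all genes. Cumulus and granulosa markers, signs of cells around the egg, had 0 of 5, 4 and 4 tested at 18h, 20h and 22h. At 24h none of the 15 was tested, and 4 were listed. They summed to 25.7 to 45.6 CPM in KO and 33.9 to 61.5 CPM in control at 18h, and to 0.554 to 2.19 CPM in KO and 0.0688 to 5.82 CPM in control at 24h.

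The host gene nearest the edgeR threshold was 1700025G04Rik, chosen after its values were seen. At 18h it had 38.1, 37.6 and 26.7 CPM in KO libraries and 2.45, 2.91 and 3.91 CPM in control libraries, a log2 change of 3.46 ± 0.44 (SE) with an edgeR adjusted p of 0.0567 and a DESeq2 adjusted p of 9.11e-12. At 20h it had 84.0, 18.5 and 53.0 CPM in KO and 6.89, 7.10 and 5.07 in control, without overlap. At 22h the groups overlapped, at 8.74, 52.4 and 21.4 CPM in KO and 2.05, 5.41 and 69.6 in control. At 24h, when chromatin was taken, the order was turned round by 1 library: it had 0 and 0 CPM in KO and 71.6 and 0 CPM in control, was not tested by edgeR after its filter on low counts, and had a DESeq2 adjusted p of 1.15e-07. Its 1 gene-body peak at 24h had 4.93 RPM in KO and 4.76 in control.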

How the data were processed

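The deposited peak tables give, per region on mm10, read counts of both conditions, which the authors divided by total reads to RPM, with a log2 ratio of both. The total reads stand in the deposited tables as another constant column. For RNA the deposited values are raw counts of reads per gene, beside positions and biotypes, the authors' mean signal per gene over libraries, and their fold change, given as a ratio at 18h, 20h and 22h and as log2 at 24h. The mean and the fold change were not used. The submitters' processing notes name Bowtie2 2.1.0, MACS2 2.1.1 and bcl2fastq 2.2 for chromatin, and Bowtie2 2.2.3, HISAT2 2.1.0 and HTSeq 0.6.0 for RNA. Whether peaks were called on pooled samples is not given in the sources used here.

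Gene bodies are the union of 5 RNA tables, mESC included, whose values were not used here. Gene names mangled to dates (26) were restored by gene ID. Per time, counts were fitted with edgeR 4.0.16 in R 4.3.3 (TMM, filterByExpr, quasi-likelihood test, Benjamini-Hochberg over all genes tested at 0.05) and with DESeq2 1.42.0, and the procedure was tested on simulated data. The tables hold fewer columns than labelled samples at 18h, 20h and 22h (3 of 4 per group), and columns carry no replicate number. At 24h the 4 columns of a group formed pairs that correlated above 0.99 in log2 CPM, and each pair was summed and counted as 1 library. CPM uses TMM-scaled totals.

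Peaks named are the 10 with the most reads, the 8 with the highest and the 8 with the lowest ratio at 100 reads or more, and the 5 widest. Genes named are the 5 with the most members, the 10 hosts with the highest control CPM at 24h, and hosts on 8 gene lists: H3K4 methyltransferases and core subunits, H3K4 demethylases, two-cell genes, maternal oocyte genes, pluripotency genes, developmental regulators, trophectoderm and later embryo, and cumulus and granulosa cells. Members and lists were chosen with earlier results of these data known. RefSeq entries were matched by symbol and chromosome. Some genes that these rules select are not reported here.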

Additional observations from a re-analysis of the deposited data

Results flagged for a closer look

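A pair of host genes of those named differed in direction between times. Every KO library lay above the controls at 1 time and below them at another, and the difference between times was not tested. All named host genes were searched for this pattern, and its share over all genes was not counted. With 2 or 3 libraries per group, such a search can return genes by spread alone. Tpd52 RNA had a log2 change, KO over control, of 0.26 at 22h and -1.12 at 24h. Its means were 883.4 ± 172.6 CPM in KO and 738.2 ± 34.8 CPM in control at 22h (SD, n = 3), and 657.6 ± 34.4 CPM in KO and 1425 ± 477 CPM in control at 24h (SD, n = 2). 2010111I01Rik RNA had a log2 change of -0.77 at 18h and 0.16 at 22h. Its means were 10.9 ± 1.73 CPM in KO and 18.6 ± 7.47 CPM in control at 18h, and 27.5 ± 1.46 CPM in KO and 24.5 ± 1.12 CPM in control at 22h (SD, n = 3 each). None of the 4 values passed edgeR's adjusted threshold.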

How the results depend on the processing

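The summed log2 ratio of H3K4me3 at members, -0.138, kept its sign under each alternative. It was -0.141 at a minimum distance of 5 kb, -0.133 at 20 kb, -0.129 with H3K27me3 overlaps kept and -0.0534 scaled by reads in peaks near protein_coding starts. In alternatives chosen after seeing the data it was -0.141 without the Chl1 peak and -0.143 over 2 kb from any RefSeq start. The AcNPM1 share of 2.02% was 1.30% when at least 50% of the peak had to be covered. It was 3.17% with the peaks of the inhibitor table, which overlapped 4.35% of all peaks without H3K27me3. The count of host genes called by edgeR was 0 at each time. Tested by DESeq2 the counts for 18h, 20h and 24h were 13, 7 and 261, beside 98 of 20399, 32 of 15685 and 1405 of 8665 genes. Without a filter on low counts those for 18h, 20h and 22h were 7, 4 and 2 of 4312, 4177 and 4312 hosts. Over all genes they were then 72 of 29039, 15 of 26235 and 33 of 28777. Leaving out 1 library gave 0 at 18h, 20h and 22h. At 24h this leaves 1 library in a group, which is then assumed to vary like the other group, and no count is given. Taking each of the 8 columns at 24h as a library of its own gave 177 of 1535 hosts tested, beside 823 of 6805 genes. The cause of these shifts was not tested. No paired analysis was possible because the count columns carry no replicate number of the labels. Depth limits single peaks: the median counting error of a member's log2 ratio was 0.15.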
